A study of Saccharomyces cerevisiae with 4 samples.

Results

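The iron uptake genes of budding yeast were followed in ribosome profiling data, which count the mRNA fragments protected by ribosomes (footprints), from 2 *dbp1Δ* libraries and 2 wild-type libraries. The 10 genes were *FIT1* (YDR534C), *FIT2* (YOR382W), *FIT3* (YOR383C), *ARN1* (YHL040C), *ARN2* (YHL047C), *SIT1* (YEL065W), *ENB1* (YOL158C), *FET3* (YMR058W), *FTR1* (YER145C) and *FRE1* (YLR214W), taken by systematic name from the 5371 ORFs of the deposited table, and all 10 were found there. They were gathered with these values known, above all the low footprints of *dbp1Δ* replicate 1, so the differences among the libraries in these genes are a description, and counts of them from fits over all ORFs are not evidence about them. In the *dbp1Δ* cells the *DBP1* ORF, which encodes an RNA helicase, had been deleted with Cas9 and no resistance cassette was left in its place, and the wild-type cells carried the intact gene. All 4 libraries came from the SK1 strain, collected 6 h after transfer to rich sporulation (SPO) medium with 2% potassium acetate and treated with cycloheximide, which holds ribosomes on the mRNA, and the 2 replicates of a genotype are biological replicates in the submitters' words. Values are RPKM, footprint reads scaled to ORF length and to the mapped reads of the library, so levels can be set side by side between genes. Where a pair of values is given for a genotype, that of replicate 1 comes before that of replicate 2.

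Yeast takes up scarce iron by several routes. Siderophores, iron chelators released by other microbes, are held in the cell wall by the Fit mannoproteins and imported by transporters of the Arn family. In the reductive route, surface reductases free the iron as ferrous iron, which the oxidase Fet3 and the permease Ftr1 then carry across the plasma membrane. The transcription factor Aft1 is known to switch on the genes of both routes when iron runs short.

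The depth implied by the RPKM values was 5789178 and 4971128 reads in *dbp1Δ* replicates 1 and 2, and 5294780 and 4619170 reads in wild-type replicates 1 and 2. *DBP1* itself was at 0.578 and 0.449 RPKM in the *dbp1Δ* libraries, against 164 and 147 RPKM in the wild-type libraries, which fits the genotype labels. On the log2(RPKM + 0.5) scale used throughout, 222 of the 5338 tested ORFs (those averaging 1 RPKM or more; 4.16%) differed at least 2-fold within the *dbp1Δ* pair, against 51 (0.955%) within the wild-type pair, so *dbp1Δ* replicate 1 and replicate 2 are described separately. Genes of meiosis had footprints in every library, as the label of sporulating cells implies. The summed level of 9 of them (*IME1*, *IME2*, *SPO11*, *HOP1*, *ZIP1*, *REC8*, *DMC1*, *NDT80* and *SPS1*) was 10147 and 9054 RPKM in *dbp1Δ* replicates 1 and 2 and 9684 and 9311 RPKM in wild-type replicates 1 and 2. *SPS1* alone, at 4032 and 4016 RPKM in *dbp1Δ* and 3993 and 3883 RPKM in wild type, weighs heavily in these sums. Of the 9 genes, 7 were highest in *dbp1Δ* replicate 1, against 37.9% of all tested ORFs. Their median log2 difference from the wild-type mean was 0.50 in *dbp1Δ* replicate 1 and -0.25 in replicate 2. The part of these genes in the results on iron uptake was not tested.

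In *dbp1Δ* replicate 1, 9 of the 10 iron uptake genes had fewer footprints than in any other library, and *ARN2* was the exception. Over all tested ORFs, this library was the lowest for 35.9%. The summed level of the 10 genes was 77.5 RPKM in *dbp1Δ* replicate 1 and 348 RPKM in *dbp1Δ* replicate 2, against 344 and 442 RPKM in wild-type replicates 1 and 2. The *dbp1Δ* libraries thus stood at 19.7% and 88.6% of the wild-type mean. Replicate 1 of *dbp1Δ* was the lowest library in the summed level of the wall proteins, of the siderophore transporters and of the reductive route. Fewer footprints of a gene can come from less mRNA or from fewer ribosomes per mRNA, and these cannot be told apart in footprint values.

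**Figure D1:**
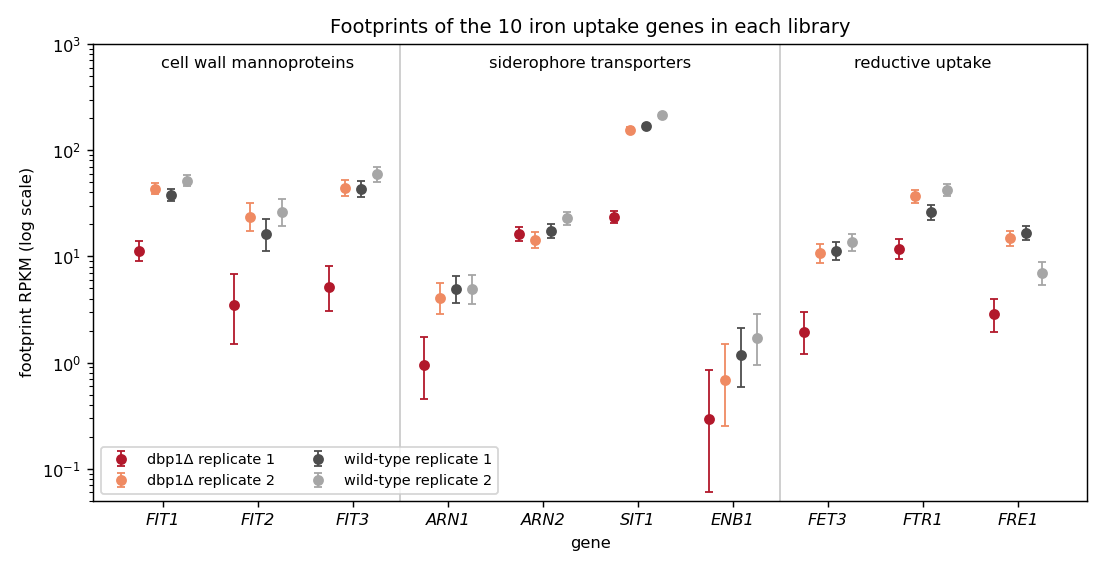
Footprint RPKM (log scale) of the 10 iron uptake genes in the 4 libraries, grouped by role. Points are single libraries, and bars are 95% intervals from the read numbers (exact Clopper-Pearson), for counting error alone. *dbp1Δ* replicate 1 is the lowest library for 9 of the 10 genes, and for *ARN2* it lies at 16.2 RPKM, between *dbp1Δ* replicate 2 at 14.4 RPKM and the wild-type libraries.

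The Fit proteins are mannoproteins of the cell wall that retain siderophore-bound iron near the cell. *FIT3* was at 5.13 and 44.5 RPKM (18 and 134 reads) in the *dbp1Δ* libraries, against 43.0 and 59.3 RPKM (138 and 166 reads) in the wild-type libraries. Replicate 1 of *dbp1Δ* therefore held *FIT3* at 0.119 and 0.0865 of the wild-type values, while replicate 2 lay between the wild-type libraries. Of the 5338 tested ORFs, no other than *DBP1* lay further below the wild-type mean in *dbp1Δ* replicate 1 than *FIT3*, whose difference there was -3.18. *FIT2*, the neighbour of *FIT3*, was at 3.46 and 23.7 RPKM (8 and 47 reads) in the *dbp1Δ* libraries, against 16.1 and 26.0 RPKM (34 and 48 reads) in the wild-type libraries. *FIT1* was at 11.3 and 43.4 RPKM (82 and 271 reads) in the *dbp1Δ* libraries, against 37.7 and 51.7 RPKM (251 and 300 reads) in the wild-type libraries. For each of the 3 *FIT* genes, *dbp1Δ* replicate 2 lay between the wild-type libraries, so the genotypes overlapped. Their summed level in *dbp1Δ* replicates 1 and 2 was 17.0% and 95.4% of the wild-type mean.

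The spread of the *FIT* genes within *dbp1Δ* was wider than that within wild type. For *FIT3* the mean was 24.8 ± 27.8 RPKM in *dbp1Δ* and 51.2 ± 11.5 RPKM in wild type (SD, n = 2 libraries each), and its log2 fold change of *dbp1Δ* over wild type was -1.68 (standard error 0.78, limma). The log2 fold changes of *FIT2* and *FIT1* were -1.10 (standard error 0.70) and -0.97 (standard error 0.52). Without *dbp1Δ* replicate 1 these 3 values were -0.18 for *FIT3*, 0.21 for *FIT2* and -0.03 for *FIT1*.

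The Arn family are major facilitator transporters that import iron bound to siderophores, each with its own preferred siderophores. *SIT1*, the transporter of ferrioxamine B, had the most footprints of the 10 genes in every library. It was at 23.5 and 155 RPKM (249 and 1411 reads) in the *dbp1Δ* libraries, against 170 and 213 RPKM (1643 and 1795 reads) in the wild-type libraries. With these read numbers counting error was small. The ratio of *dbp1Δ* replicate 1 to replicate 2 was 0.152 (exact 95% interval from 0.132 to 0.174). Both *dbp1Δ* libraries lay below both wild-type libraries for *SIT1*, but replicate 2 did so narrowly, at 81.2% of the wild-type mean against 12.3% for replicate 1. The mean was 89.4 ± 93.2 RPKM in *dbp1Δ* and 191 ± 30.3 RPKM in wild type (SD, n = 2 libraries each), and the log2 fold change of -1.64 (standard error 0.69) became -0.29 without *dbp1Δ* replicate 1.

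*ARN1*, whose product imports ferrichromes, was much lower in level and showed the same split. It was at 0.947 and 4.08 RPKM (10 and 37 reads) in the *dbp1Δ* libraries, against 4.97 and 4.98 RPKM (48 and 42 reads) in the wild-type libraries. The wild-type libraries differed for *ARN1* by less than for any other gene of the 10, and *dbp1Δ* replicate 1 was at 19.0% of their mean. *ENB1*, the enterobactin transporter, was at 0.294 and 0.685 RPKM in *dbp1Δ* and at 1.18 and 1.72 RPKM in wild type. These values rest on 3 and 6 reads in *dbp1Δ* and on 11 and 14 reads in wild type, so the *dbp1Δ* libraries could not be told from each other at this depth (ratio 0.429, exact 95% interval from 0.0695 to 2.01). *ENB1* was also the only gene of the 10 with a mean under 1 RPKM and was not among the tested ORFs.

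*ARN2*, which encodes the transporter of triacetylfusarinine C, did not share the pattern. It was at 16.2 and 14.4 RPKM (174 and 133 reads) in the *dbp1Δ* libraries, against 17.3 and 22.8 RPKM (170 and 196 reads) in the wild-type libraries. The ratio of *dbp1Δ* replicate 1 to replicate 2 was 1.12 (exact 95% interval from 0.891 to 1.42), against 0.152 for *SIT1* and 0.232 for *ARN1*. The order of the levels differed accordingly. In *dbp1Δ* replicate 1 *ARN2* came second of the 10 genes, with 20.9% of their summed RPKM, whereas it came in position 7 in *dbp1Δ* replicate 2 and in positions 5 and 6 in wild-type replicates 1 and 2, with between 4.14% and 5.17% of the sum. *SIT1* was first in each library, *ARN1* in position 9 and *ENB1* last, and apart from *dbp1Δ* replicate 1 the order of the first 4 was *SIT1*, *FIT3*, *FIT1* and *FTR1*. The intervals of *FIT3* and *FIT1* overlapped in each of these 3 libraries, and those of *FIT1* and *FTR1* in *dbp1Δ* replicate 2 and wild-type replicate 2. The interval of *ARN2* overlapped those of *FRE1* and *FET3* in *dbp1Δ* replicate 2. It overlapped that of *FRE1* in wild-type replicate 1, and that of *FIT2* in both wild-type libraries. In *dbp1Δ* replicate 1 it overlapped those of *FTR1* and *FIT1*. Parts of these orders thus lie within counting error.

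*FET3* encodes the multicopper oxidase of the reductive route and *FTR1* the permease it works with. *FET3* was at 1.96 and 10.7 RPKM (21 and 98 reads) in the *dbp1Δ* libraries, against 11.3 and 13.6 RPKM (111 and 116 reads) in the wild-type libraries. *FTR1* was at 11.8 and 36.7 RPKM (79 and 211 reads) in the *dbp1Δ* libraries, against 26.0 and 42.4 RPKM (159 and 226 reads) in the wild-type libraries. *FTR1* thus kept 34.6% of the wild-type mean in *dbp1Δ* replicate 1 and *FET3* 15.7%, and their proteins act as a complex. The wild-type libraries themselves were 1.63-fold apart for *FTR1*, the widest gap after that of *FRE1* among the 10 genes.

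*FRE1*, a surface reductase of ferric iron that also reduces copper, varied among the wild-type libraries too. It was at 2.85 and 14.8 RPKM (33 and 147 reads) in the *dbp1Δ* libraries, against 16.6 and 6.92 RPKM (176 and 64 reads) in the wild-type libraries. Wild-type replicate 2 was 2.40-fold below replicate 1, whereas 9 of the 10 genes were higher in wild-type replicate 2, against 47.8% of all tested ORFs. The order of the 4 libraries in *FRE1* was thus not that of *SIT1* or the *FIT* genes.

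Each *dbp1Δ* library was then set against the wild-type mean, beside the same difference over all tested ORFs. In *dbp1Δ* replicate 1, 9 of the 10 genes were at least 2-fold below the wild-type mean, with a median difference of -1.92 over the 10, against 0.88% of tested ORFs and a median of 0.00 over all of them. At least 2-fold above the wild-type mean in that library were 0 of the 10, against 1.44% of tested ORFs. Set against *dbp1Δ* replicate 2, replicate 1 was at least 2-fold lower for 8 of the 10 genes, all but *ARN2* and *ENB1*, against 1.01% of tested ORFs. Among the 9 that were tested, all but *ARN2* ranked among the 23 lowest of the 5338 ORFs in the difference of *dbp1Δ* replicate 1 from the wild-type mean. In *dbp1Δ* replicate 2, 0 of the 10 genes were 2-fold or more from the wild-type mean in either direction, against 0.693% of tested ORFs (0.506% at least 2-fold below it), and the median difference was -0.20 against -0.04 over all tested ORFs. Of the 10 genes, 5 lay below both wild-type libraries in *dbp1Δ* replicate 2, against 43.2% of tested ORFs, and the other 5 lay between them. In *dbp1Δ* replicate 1 all 10 lay below both, against 41.6% of tested ORFs. Both *dbp1Δ* libraries lay below both wild-type libraries for *ARN1*, *ARN2*, *SIT1*, *ENB1* and *FET3*, 5 of the 10 genes, against 15.3% of tested ORFs. Because all 10 lay below both in *dbp1Δ* replicate 1, this count only repeats that of replicate 2, for which the share was 43.2%.

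**Figure D2:**
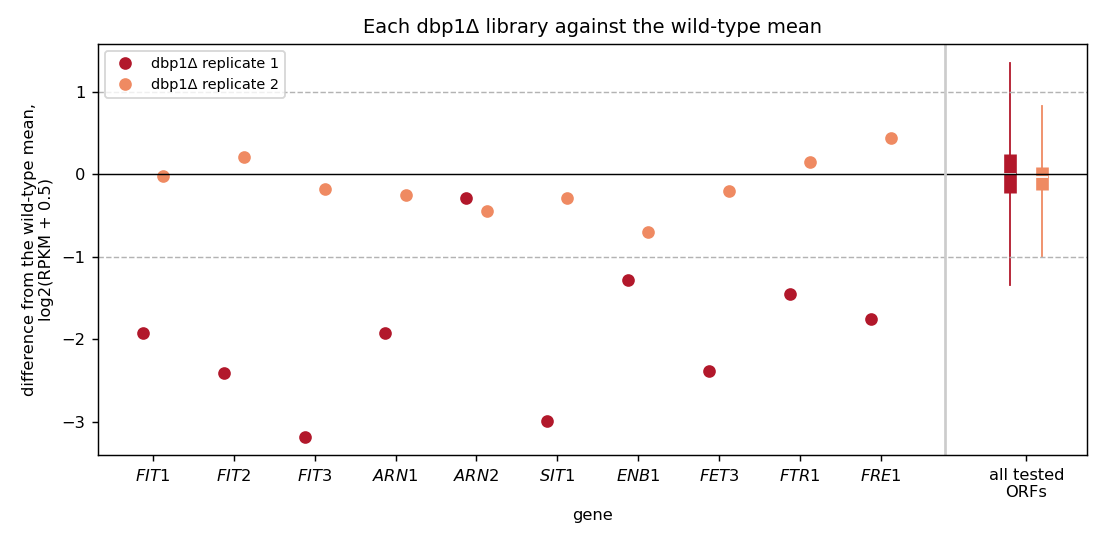
Difference of each *dbp1Δ* library from the wild-type mean, on the log2(RPKM + 0.5) scale, for the 10 genes, with the same for all tested ORFs at the right (thick bar from the first to the third quartile, thin line over the middle 99% of ORFs, white mark at the median). Dashed lines mark 2-fold. Replicate 1 lies between -3.18 and -1.28 for all genes but *ARN2*, at -0.29, and replicate 2 between -0.70 and 0.44.

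With the libraries of a genotype taken as replicates in limma, 2 of the 5338 ORFs (0.0375%) had an adjusted p under 0.05. Among them were 0 of the 9 tested iron uptake genes. Passing and lower in *dbp1Δ* were 0 of the 9, against 0.0187% of ORFs. An unadjusted p under 0.05 was found for 1 of the 9, against 89 of all 5338 ORFs. Such counts in the lists below are to be set beside the same 89. The median log2 fold change of the 9 genes was -1.09 against -0.03 over all tested ORFs. Because the genes were gathered from this contrast, nothing is read from the counts. The median was -0.18 without *dbp1Δ* replicate 1 and -1.92 without *dbp1Δ* replicate 2. Without *dbp1Δ* replicate 1, 0 of the 9 passed (0.0187% of ORFs), and without *dbp1Δ* replicate 2, 7 of the 9 passed (9.7% of ORFs). Leaving out wild-type replicate 1 gave 2 of the 9 (0.112% of ORFs) and leaving out wild-type replicate 2 gave 1 (0.131% of ORFs). A replicate block gave 5 of the 9 (0.468% of ORFs), and the same block with crossed numbers gave 5 (0.525% of ORFs). Either block takes up part of the gap between the *dbp1Δ* replicates, so these counts are not independent of each other. For any 1 gene, permuting the 4 genotype labels allows no two-sided exact p smaller than 0.333.

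Other genes of iron handling were taken from lists written from general knowledge, but with earlier results of these data known. Of 21 further genes known as targets of Aft1 or of its paralog Aft2, 19 were in the table and 17 were tested. In *dbp1Δ* replicate 1, 14 of these 17 lay below both wild-type libraries, against 41.6% of all tested ORFs, and 3 were at least 2-fold below the wild-type mean, against 0.88%, with a median difference of -0.38. In *dbp1Δ* replicate 2 the median was 0.04 and 0 of the 17 were at least 2-fold below.

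*TIS11*, which encodes an mRNA-binding protein that promotes the decay of mRNAs of iron-using proteins when iron is scarce, was at 49.6 and 158 RPKM in *dbp1Δ* replicates 1 and 2, against 140 and 139 RPKM in wild-type replicates 1 and 2. *LSO1*, a small protein made under iron limitation, was at 52.9 and 111 RPKM in *dbp1Δ*, against 132 and 139 RPKM in wild type. *MRS4*, a carrier of iron into mitochondria, was at 11.5 and 22.6 RPKM in *dbp1Δ*, against 21.9 and 28.1 RPKM in wild type. These 3 were the genes of the list at least 2-fold below the wild-type mean in *dbp1Δ* replicate 1, and each lay within 1.23-fold of that mean in replicate 2. *FRE6*, a vacuolar reductase, and *COT1*, a vacuolar metal transporter, came next, at differences of -0.80 and -0.66 in *dbp1Δ* replicate 1. *HMX1*, the heme oxygenase that frees iron from heme, went the other way, at 388 and 294 RPKM in *dbp1Δ* against 283 and 261 RPKM in wild type.

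In limma 0 of these 17 genes passed in either direction, with a median log2 fold change of -0.19. An unadjusted p under 0.05 was found for 1 of the 17, against 89 of all 5338 tested ORFs. Without *dbp1Δ* replicate 2, when *dbp1Δ* replicate 1 alone was set against wild type and assumed to vary like the wild-type libraries, 8 of the 17 passed, 7 lower and 1 higher, against 9.7% of all tested ORFs. Without *dbp1Δ* replicate 1 it was 0 of 17.

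**Figure D3:**
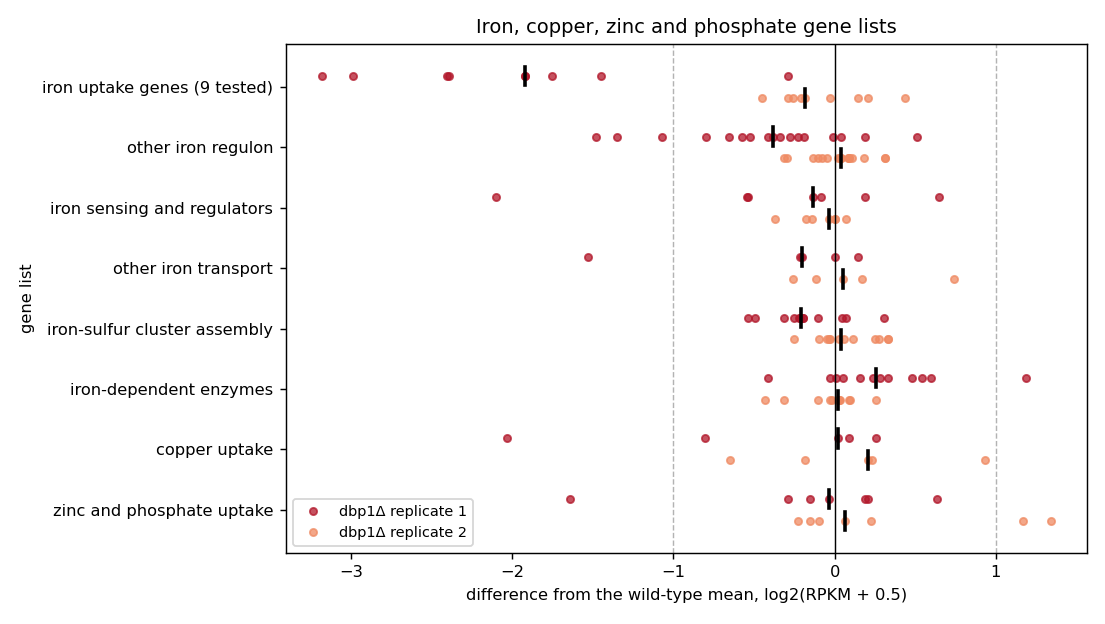
Difference of each *dbp1Δ* library from the wild-type mean on the log2(RPKM + 0.5) scale for every tested gene of 8 lists. Points are genes, black bars are list medians and dashed lines mark 2-fold. The iron uptake genes have a median of -1.92 in *dbp1Δ* replicate 1, and no other list has one below -0.38. The iron uptake genes were gathered with their low values in that library known, so the medians do not rank the lists fairly.

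The regulator *AFT1* was itself among the genes with few footprints in that library. It was at 0.858 and 3.997 RPKM (10 and 40 reads) in the *dbp1Δ* libraries, against 5.16 and 5.48 RPKM (55 and 51 reads) in the wild-type libraries. The ratio of *dbp1Δ* replicate 1 to replicate 2 was 0.215 (exact 95% interval from 0.0957 to 0.437). *AFT1* is the gene with the lowest difference in its list of 7 genes of iron sensing. The difference of *GRX3*, a glutaredoxin that passes the iron signal to Aft1, was 0.65 in *dbp1Δ* replicate 1, at 76.6 and 47.4 RPKM in *dbp1Δ* against 46.9 and 50.5 RPKM in wild type. The list median was -0.13 in *dbp1Δ* replicate 1 and -0.04 in replicate 2, and 0 of the 7 genes passed in limma. An unadjusted p under 0.05 was found for 1 of the 7, against 89 of all 5338 tested ORFs.

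Genes whose products build or carry iron-sulfur clusters, or otherwise need iron, were read in the same way. Of 12 genes of iron-sulfur cluster assembly, 8 were lowest in *dbp1Δ* replicate 1, against 35.9% of all tested ORFs. Their median difference there was -0.21, where the quartiles of all tested ORFs were -0.23 and 0.25. In that library 0 of the 12 were 2-fold or more from the wild-type mean. Over all tested ORFs 0.88% were at least 2-fold below it and 1.44% at least 2-fold above, so this count says little. In limma 0 of the 12 passed, with 0 at an unadjusted p under 0.05. The lowest were *YAH1*, the mitochondrial ferredoxin, at -0.54, and *YFH1*, frataxin, at -0.49. Of 12 iron-dependent proteins, 7 were higher in *dbp1Δ* replicate 1 than in any other library, against 37.9% of all tested ORFs, and 1 was lower, against 35.9%, with a median of 0.26, and again 0 passed in limma, with 0 at an unadjusted p under 0.05. *RLI1*, an iron-sulfur protein of ribosome recycling, was at 35.5 and 12.2 RPKM in *dbp1Δ* against 14.1 and 16.5 RPKM in wild type. *ILV3*, an iron-sulfur enzyme of branched-chain amino acid synthesis, was at 27.1 and 19.0 RPKM in *dbp1Δ* against 18.7 and 16.8 RPKM in wild type.

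Among transporters of other metals and of phosphate, single genes had wide differences while the list medians lay near 0. *FET4*, the low-affinity iron transporter, was at 0.648 and 5.03 RPKM (6 and 40 reads) in the *dbp1Δ* libraries, against 5.43 and 1.35 RPKM (46 and 10 reads) in the wild-type libraries. *CTR3*, a high-affinity copper transporter, was at 107 and 838 RPKM in *dbp1Δ* against 1040 and 185 RPKM in wild type. Like *FRE1*, they were low in *dbp1Δ* replicate 1 and in wild-type replicate 2, a pattern the *FIT* genes and *SIT1* do not have. *PHO84* and *PHO89*, the high-affinity phosphate transporters, were lowest in wild-type replicate 2, at 2.67 and 7.93 RPKM. *ZRT1*, the high-affinity zinc transporter, was lowest in *dbp1Δ* replicate 1 and highest in wild-type replicate 2, as *SIT1* was, at 12.3 and 33.6 RPKM in *dbp1Δ* against 33.7 and 46.1 RPKM in wild type. The median difference of *dbp1Δ* replicate 1 from wild type was 0.02 over 5 genes of copper uptake, -0.04 over 7 genes of zinc and phosphate uptake and -0.20 over 5 other iron transporters. In each of these 3 lists 0 genes passed in limma, and 0 had an unadjusted p under 0.05. *FRE7*, a reductase regulated by copper, was at a difference of -0.80 in *dbp1Δ* replicate 1 and -0.65 in replicate 2, and *SMF2*, a manganese transporter, at -0.22 and 0.17.

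**Figure D4:**
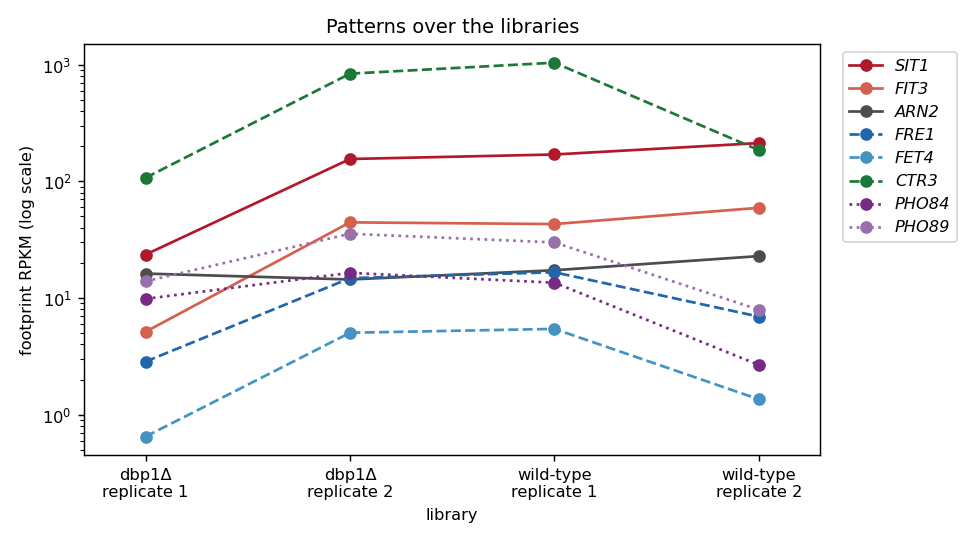
Footprint RPKM (log scale) in the 4 libraries for *SIT1*, *FIT3*, *ARN2*, *FRE1*, *FET4*, *CTR3*, *PHO84* and *PHO89*, with lines that only join the values of a gene. *SIT1* and *FIT3* are low in *dbp1Δ* replicate 1 alone, at 23.5 and 5.13 RPKM, whereas *FRE1*, *FET4* and *CTR3* are also low in wild-type replicate 2, at 6.92, 1.35 and 185 RPKM.

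The ORFs next to the iron uptake genes were read for the same difference. These were the nearest protein-coding ORFs of the deposited table on either side, in the order of the S288C annotation of assembly R64. ORFs absent from the table were skipped, so some may not be immediate neighbours. Apart from the 10 genes themselves they comprised 17 ORFs, of which 16 were tested. Their differences from the wild-type mean in *dbp1Δ* replicate 1 ran from -0.70 (*STL1*) to 0.63 (*CDC123*), with a median of -0.14. At least 2-fold below were 0 of the 16, against 0.88% of all tested ORFs, so the count says little about 16 ORFs. *FIT2* and *FIT3* are adjacent and have the reductase genes *FRE3* and *FRE5* on their outer sides. *FRE5* was at 1.98 and 3.002 RPKM in the *dbp1Δ* libraries and at 2.63 and 2.05 RPKM in the wild-type libraries, so it did not share the 4.65-fold and 7.52-fold gap of *FIT2* between *dbp1Δ* replicate 1 and the wild-type libraries. *FRE3* had 1 and 6 reads in *dbp1Δ* and 6 and 5 reads in wild type, too few to compare. Beside *SIT1*, *HPA3* was at 42.5 and 43.2 RPKM in *dbp1Δ* against 40.9 and 40.6 RPKM in wild type.

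**Figure D5:**
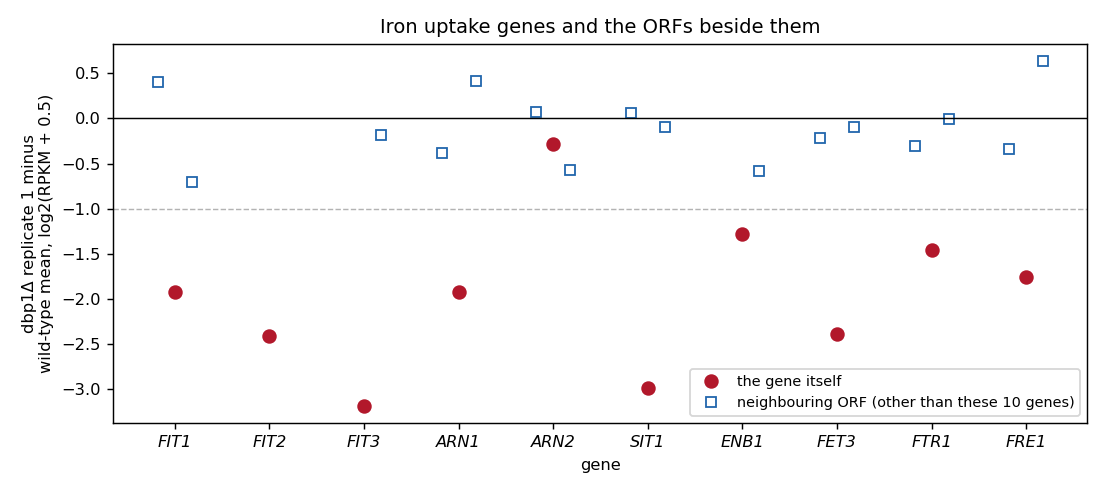
Difference of *dbp1Δ* replicate 1 from the wild-type mean on the log2(RPKM + 0.5) scale for each iron uptake gene (filled circles). Open squares are the nearest ORFs of the deposited table on either side, where tested. The dashed line marks 2-fold below the mean. The 16 neighbours lie between -0.70 and 0.63.

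The ORFs whose pattern over the 4 libraries was most like that of the tested iron uptake genes were sought among the 4248 other ORFs that averaged 10 RPKM or more. Likeness was the distance of their mean-centred log2 values to the median profile of the 9 genes. ORFs of lower level, such as the regulator *AFT1*, were left out by this filter, so nearer profiles among them would not be seen. *ARN1* and *FET3* also averaged under 10 RPKM but were part of the profile. Among the ORFs that passed the filter, the nearest were *PGI1* (distance 0.44), *ZRT1* (0.45), the ORF YFR052C-A (0.49), *ENO2* (0.50) and *TIS11* (0.52). *PGI1* encodes a glycolytic isomerase and *ENO2* the glycolytic enolase. *PGI1* was at 6.89 and 23.6 RPKM in the *dbp1Δ* libraries and at 21.5 and 21.6 RPKM in the wild-type libraries. Of the 9 genes themselves, from which the profile was taken, *ARN1* and *FIT1* lay at 0.26 each and *FET3* at 0.31, and *ARN2* lay furthest of the 9, at 1.65.

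For 4 of the 10 genes the S288C length did not turn the RPKM values into whole reads. Footprint RPKM moves in steps of 1 read, and with the reference lengths 89.1% of all values were whole reads within 0.05. *FIT1*, *FIT2*, *FIT3* and *ARN2* were not. Shifts in length of -270 nt, -3 nt, 51 nt and 54 nt made the values of *FIT1*, *FIT2*, *FIT3* and *ARN2* whole in all 4 libraries. Lengths were tried in steps of 3 nt up to 600 nt either way. A single length fitted *FIT1* and *ARN2*, 2 lengths fitted *FIT2* and 3 fitted *FIT3*, of which the nearest to the reference was taken. The read numbers and intervals of these genes rest on that choice, whereas the RPKM values and their ratios do not. The ORF lengths behind the deposited values are not given in the sources used here, nor is how reads shared by similar genes such as the *ARN* family were counted.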

How the data were processed

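Footprint reads were mapped by the authors to the SK1 genome and taken per ORF. The submitters' processing notes name Bowtie2, and its version and the annotation are not given in the sources used here. The authors deposited RPKM values, which are reads scaled to the mapped reads of the library and to ORF length, for each library separately and without scaling between libraries. Symbols and the order of ORFs came from the S288C annotation of assembly R64, where 5311 of 5371 ORFs matched. The files use another genome, so no coordinates are given.

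The 5338 ORFs averaging 1 RPKM or more were tested on log2(RPKM + 0.5) with limma 3.58.1 in R 4.3.3 (lmFit, eBayes with a trend), fitting genotype alone, and p-values were adjusted by Benjamini-Hochberg across the whole set. The pseudocount makes fold changes of low ORFs too small. Differences of single libraries from the wild-type mean were taken on the same scale. Library depths were recovered from the steps of the RPKM values, using reference lengths less 60 nt. Exact 95% Clopper-Pearson intervals, for values and (conditional on the sum) for ratios, came from these reads. They cover counting error only, and may be too narrow even for that, since amplified reads are not independent molecules. The limma fit and the recovery of depths were each tested on simulated data. Intervals were computed with scipy 1.17.1 and figures drawn with matplotlib 3.10.9 in Python 3.11.15.

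The 10 genes and the lists were chosen with earlier results of these data known. The further genes given in full were the 5 of the Aft1 and Aft2 target list and the 2 of every other list with the largest difference of *dbp1Δ* replicate 1 from the wild-type mean, the 5 ORFs of most similar profile and *DBP1*. *FRE3*, *FRE5*, *HMX1*, *PHO89*, *STL1*, *CDC123* and *HPA3* were singled out after their values were seen. Alternatives were other pseudocounts (0.1 and 1), filters (none, or a 10 RPKM mean), scalings (median centring, quantiles), no variance trend, a replicate block, and each library left out in turn. Crossed numbers for the block were added after the data were seen. Promoter and protein sequences were not analysed here.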

Additional observations from a re-analysis of the deposited data

How the results depend on the processing

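The median difference of *dbp1Δ* replicate 1 from the wild-type mean over the tested iron uptake genes (-1.92) was -2.28 with a pseudocount of 0.1 and stayed between -2.15 and -1.88 under the other alternatives, between -2.15 and -2.07 with either wild-type library left out. That of *dbp1Δ* replicate 2 (-0.18) stayed between -0.26 and -0.03. With *dbp1Δ* replicate 1 left out, the log2 fold changes of *FIT2*, *FTR1* and *FRE1* turned positive, at 0.21, 0.14 and 0.44, and with *dbp1Δ* replicate 2 left out they were lowest, at -2.40, -1.45 and -1.75. With each library left out, the ORFs passing in limma at an adjusted p of 0.05, 2 with all libraries, ranged from 1 to 518, highest without *dbp1Δ* replicate 2, and the number of other Aft1 and Aft2 targets passing ranged from 0 to 8. The median log2 fold change of the 9 tested iron uptake genes was -1.92 without *dbp1Δ* replicate 2 and -0.18 without *dbp1Δ* replicate 1. It was -1.20 without wild-type replicate 1 and -1.09 without wild-type replicate 2. These genes were gathered with the low values of *dbp1Δ* replicate 1 known, so counts of them that pass are not evidence about them. A lone library was assumed to vary like the libraries of the other genotype. The replicate block gave 25 ORFs, among them *FIT1*, *FIT2*, *FIT3*, *SIT1* and *FET3*, and 1 other Aft1 or Aft2 target (*LSO1*). With the crossed pairing of the replicate block there were 28 ORFs, again with 5 of the iron uptake genes and 1 other target. Whichever way the libraries are paired, the block takes up part of the gap between the *dbp1Δ* replicates. The deviations of same-numbered libraries had a correlation of -0.135 across ORFs, so the numbers were not taken to pair the libraries. What causes these shifts was not tested. Under the other alternatives, with another pseudocount, filter, scaling or variance model, 0 of the iron uptake genes passed. Depth limits *ENB1*, with 3 to 14 reads a library, and *FIT2* and *ARN1*, with 8 and 10 reads in *dbp1Δ* replicate 1.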
